A study of Mus musculus with 12 samples.

Results

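The RNA of 10 tetraspanin genes, Tspan13, Tspan3, Tspan14, Tspan31, Tspan32, Cd9, Cd37, Cd53, Cd63 and Cd81, was followed in mouse acute myeloid leukemia (AML) cells with a Tet2 knockout and without one. The members were chosen by gene symbol, and all 10 were found among the 24589 genes of the table. All 10 passed the filter on low values (at least 1 TPM in at least 2 libraries), as did 11152 genes in all. TPM scales each gene's reads by transcript length, so that it gives the gene's part of all transcripts measured in that library.

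The 12 libraries came from NRAS/AE9a leukemic cells, whose name points to the oncogenes NRAS and AML1-ETO9a, carried by knockout and wild-type cells alike. The groups were Tet2 knockout (KO) cells at 0, 4 and 8 h of actinomycin D and wild-type (WT) cells at the same times, with 2 libraries in each of the 6 groups. Actinomycin D, an inhibitor of transcription, was used at 5 µg/ml, so the later times show the RNA that remains once synthesis is blocked. All cells grew with SCF, IL-3 and IL-6 and under G418 and puromycin. No further line of KO or WT cells is named, so genotype and any other difference between the cell populations cannot be told apart. The labels leave unsaid whether both libraries of a group were separate cultures. P-values therefore reflect the spread between libraries alone, and that spread may be technical.

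Tetraspanins are small membrane proteins that gather integrins, immunoglobulin-family proteins, receptors and proteases into patches of the plasma membrane or of endosomes. They are recognised by an outer loop that carries a Cys-Cys-Gly triplet, and they act mostly through the partners they hold. In blood cells they tune adhesion, migration and signalling. Tspan13 is the member that the study turns on, next to Tet2, which encodes an oxidase of 5-methylcytosine, Cxcr4, the receptor by which blood cells home to the marrow, and Ybx1, which encodes an RNA-binding protein. The questions put to the data were whether Tspan13 and its relatives differ in level between KO and WT cells, and whether their RNA is lost at another pace after actinomycin D.

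The coding sequences below show the family mark around which the 10 genes are defined and how near the members are to each other. Each line gives 27 coding bases, 5′ to 3′, from the GENCODE M21 transcript on GRCm38, with the codons of the Cys-Cys-Gly triplet in capitals.
Tspan13: aatttgaacTGCTGTGGCttccggagc
Tspan31: agttttgacTGCTGTGGCttgttcaac
Cd9: gcgttggacTGCTGTGGCatagctggt
Cd81: acgctcaacTGTTGTGGCtccaacgca
Cd37: cagctgcgcTGCTGCGGCtggcaatct
Cd63: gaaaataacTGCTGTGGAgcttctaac

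The Tspan13 stretch lies on the minus strand in exon 4, at chr12:36021828-36021854, and starts the triplet at residue 128 of 204. The Tspan31 stretch lies on the minus strand in exon 4, at chr10:127068522-127068548, and starts the triplet at residue 129 of 210. In these genes the stretch is within 1 exon. In Cd9, Cd81, Cd37 and Cd63 the printed stretch is joined from neighbouring exons, so it has no single run of genome positions. All 10 members hold the triplet in frame, against 2.19% of the 10521 tested genes with a coding transcript. Cd9, Cd63 and Cd81 hold 2 copies, of which the one that spans an exon junction is shown. Over whole coding sequences, Tspan13 and Tspan31 were the nearest pair, with 66.5% identity over 606 aligned bases. Cd9 and Cd81 came next, with 60.8% over 668 aligned bases.

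Across genes, Pearson's r was 0.991 to 0.994 between both libraries of each group and did not exceed 0.974 between groups. Between 9093 and 10827 genes reached 1 TPM in a library, and the sequencing depth is unknown. All 12 myeloid and AML marker genes reached 1 TPM in both libraries of every group, but their levels moved with genotype. At 0 h 9 were lower and 2 higher in KO cells, where 11.5% of all genes were lower and 14.3% higher. Their median was -0.63, beside 0.06 over all genes. Lyz2, the lysozyme of myeloid cells, averaged 8720 TPM in KO cells, against 22739 TPM in WT cells, and Mpo and Cebpa were the higher ones (2.16 and 0.65). The part of these marker differences in the tetraspanin values was not tested. T and NK cell markers summed to at most 0.53 TPM in any library and B cell markers to at most 1.02 TPM, with Cd3d, Cd3g, Ncr1, Pax5 and Ebf1 at 0 in all 12 libraries. Tet2 itself was still measured in the KO cells, at 10.19 and 10.16 TPM at 0 h, against 13.05 and 16.03 TPM in WT cells. The limma change was -0.47 ± 0.13 (SE, n = 2 libraries each, adjusted p = 0.0167), and without WT library 2 it was -0.33 (adjusted p = 0.105). The call was also lost without KO library 1 (adjusted p = 0.0924) or KO library 2 (adjusted p = 0.096). The labels do not say which stretch of Tet2 was deleted, and a value for the whole gene does not show it.

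Cd63 was the most abundant and Tspan13 the least abundant of the 10 in every group. Before actinomycin D, Cd63, which marks late endosomes, lysosomes and exosomes, had 1109 and 1052 TPM in KO cells, against 1024 and 1061 TPM in WT cells. It held over 50% of the summed TPM of the 10 members in every library, and up to 63.1% in KO cells and 59.4% in WT cells at 8 h. The 10 together made up 0.191 to 0.199% of all transcripts in KO cells at 0 h and 0.198 to 0.209% in WT cells.

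The order of the levels at 0 h, as mean TPM per gene over 2 libraries, was alike at its ends and different in its middle. In KO cells Cd63 (1080 TPM) was followed by Cd53 (225), Cd81 (158), Cd37 (119), Tspan31 (114), Cd9 (109.6), Tspan14 (73.0), Tspan32 (46.2), Tspan3 (19.9) and Tspan13 (9.25). Of the neighbours in that order, only Tspan31 and Cd9 had libraries that overlapped. In WT cells Cd63 (1042 TPM) was followed by Cd53 (263), Cd9 (214), Cd81 (179), Tspan31 (105), Cd37 (94.3), Tspan14 (74.3), Tspan32 (43.6), Tspan3 (14.8) and Tspan13 (2.59), with no overlap between neighbours. Cd9 stood at rank 6 in KO cells and at rank 3 in WT cells.

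**Figure D1:**
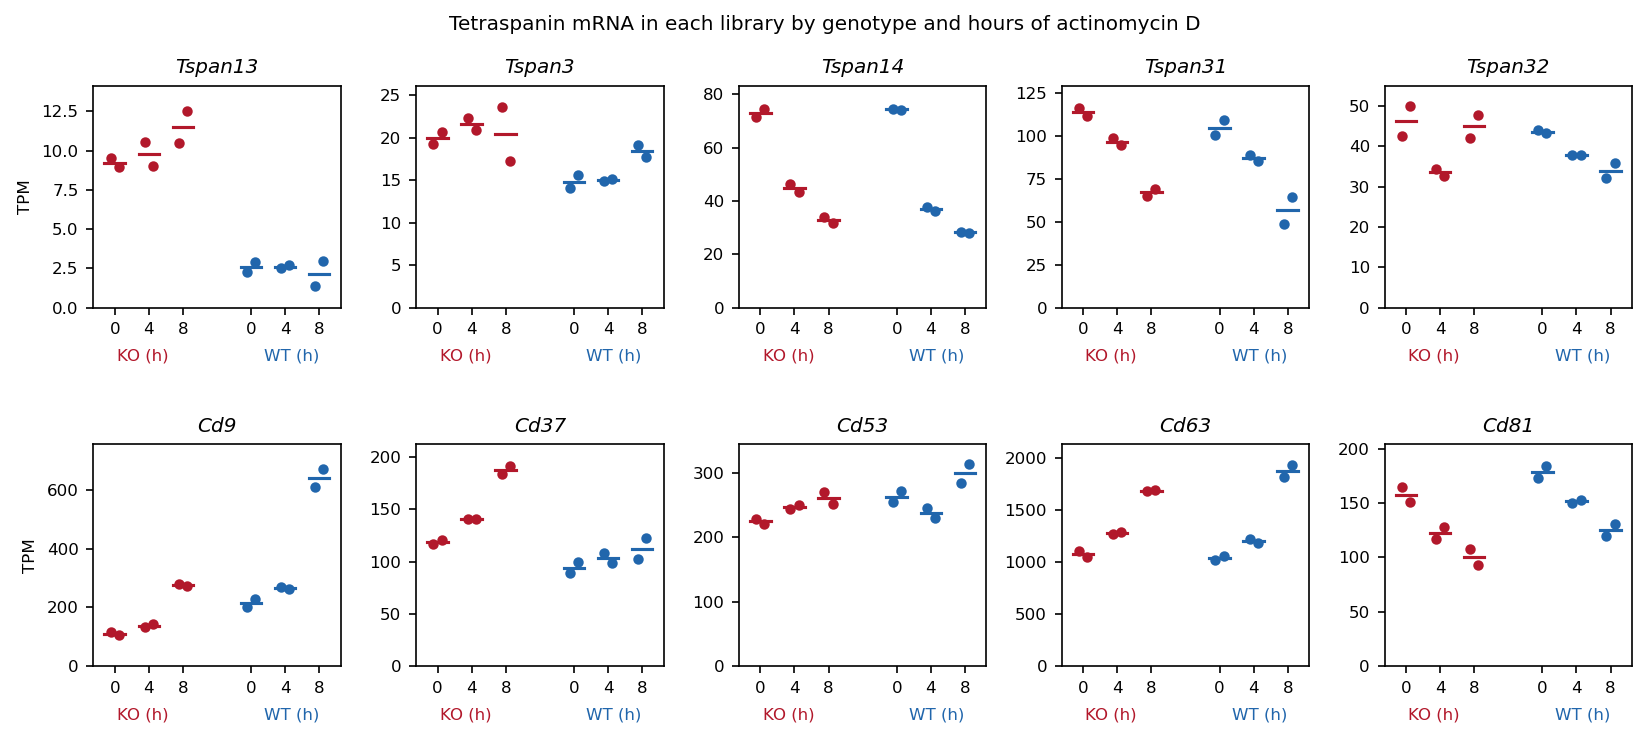
TPM of each of the 10 genes in every library, with KO libraries left and WT libraries right in each panel, ordered by hours of actinomycin D. Points are libraries and short lines are group means of 2 libraries. All 6 KO libraries are above all 6 WT libraries for Tspan13 (8.95 to 12.5 against 1.38 to 2.95 TPM), and at each time the KO libraries are below the WT libraries for Cd9.

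Tspan13 was the member with the largest difference between genotypes, and it was higher in KO cells at every time. It had 9.54 and 8.95 TPM in KO cells at 0 h, against 2.27 and 2.90 TPM in WT cells. By 4 h it had 10.55 and 9.04 TPM in KO cells, against 2.52 and 2.70 TPM in WT cells. After 8 h it had 10.50 and 12.52 TPM in KO cells, against 1.38 and 2.95 TPM in WT cells. The lowest KO library was above the highest WT library at each time, and the WT libraries at 8 h were the pair that lay furthest apart relative to their level. As a fold of mean TPM, KO cells had 3.58 times the WT level at 0 h, 3.75 times at 4 h and 5.32 times at 8 h. On the scale of log2(TPM + 1), where changes of genes as low as this come out too small, the differences were 1.52 ± 0.21 (SE, adjusted p = 0.0002), 1.58 ± 0.21 (adjusted p = 0.000122) and 2.02 ± 0.21 (adjusted p = 6.4e-06). These are limma values adjusted by Benjamini-Hochberg over all 11152 genes, with a threshold of 0.05. All 3 calls held with any 1 library left out, between 1.39 and 2.39.

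Cd9, which partners integrins and the EWI immunoglobulin proteins and is carried on exosomes and platelets, was the member with the largest difference downwards. It had 115 and 104 TPM in KO cells at 0 h, against 200.4 and 227 TPM in WT cells. After 4 h it had 132 and 143 TPM in KO cells, against 269 and 263 TPM in WT cells. With 8 h of actinomycin D it had 280.2 and 273 TPM in KO cells, against 611 and 673 TPM in WT cells. At each time both KO libraries were below both WT libraries, and the KO mean was 0.512, 0.518 and 0.431 times the WT mean at 0, 4 and 8 h. The log2 differences were -0.96 ± 0.08 (adjusted p = 4.23e-06), -0.95 ± 0.08 (adjusted p = 4.19e-06) and -1.21 ± 0.08 (adjusted p = 2.37e-07). Of the 7 mast cell and basophil markers, 5 reached 1 TPM in both KO libraries at 0 h and all 7 in WT cells, and their summed level was 3209 to 3390 TPM in KO cells, against 1050 to 1163 TPM in WT cells, with no marker at 0 in all 12 libraries. That sum was mostly Cpa3 (3129 TPM in KO cells, against 958 TPM in WT cells). In counts the list went the other way, with 5 markers lower in KO cells, like Cd9, and 2 higher, Cpa3 and Mcpt8, and a median of -1.37. Over all genes, 11.5% were lower and 14.3% higher at 0 h. Cma1 averaged 1.89 TPM in KO cells, against 25.7 TPM in WT cells. The 6 megakaryocyte and platelet markers summed to 92.5 to 114 TPM in KO cells at 0 h, against 62.7 to 63.4 TPM in WT cells, with 4 of 6 at 1 TPM in each genotype and, of those 4, 2 higher and 0 lower in KO cells. The shares over all genes are the 14.3% higher and 11.5% lower given above. The part of such cells or programs in the values of Cd9 and Cd63 was not tested, and in bulk RNA fewer cells of a type and less RNA per cell cannot be told apart.

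Cd37, a leukocyte tetraspanin that restrains signalling and is best known from B cells, was higher in KO cells at every time. It had 117 and 121 TPM in KO cells at 0 h, against 89.4 and 99.2 TPM in WT cells. With 4 h of actinomycin D it had 141.00 and 140.65 TPM in KO cells, against 108.7 and 99.0 TPM in WT cells. At 8 h it had 184 and 192 TPM in KO cells, against 102.4 and 122 TPM in WT cells. The groups did not overlap at any time, and the gap at 8 h was the widest. The log2 differences were 0.33 ± 0.09 (adjusted p = 0.0166), 0.44 ± 0.09 (adjusted p = 0.00244) and 0.74 ± 0.09 (adjusted p = 2.46e-05). Without limma's trend on mean level, the one at 0 h did not pass (adjusted p = 0.0528). The call at 0 h was lost without WT library 1 (0.26, adjusted p = 0.108), KO library 1 (adjusted p = 0.0612) or KO library 2 (adjusted p = 0.105), while those at 4 and 8 h held with any 1 library left out.

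Tspan3, on which the growth of AML stem cells depends in mouse models, was higher in KO cells at 0 and 4 h. It had 19.2 and 20.6 TPM in KO cells at 0 h, against 14.05 and 15.6 TPM in WT cells. At 4 h it had 22.4 and 20.97 TPM in KO cells, against 14.9 and 15.1 TPM in WT cells. At 8 h the KO libraries, at 23.7 and 17.3 TPM, lay on either side of the WT libraries, at 19.2 and 17.8 TPM. The differences were 0.40 ± 0.13 at 0 h (adjusted p = 0.0389), 0.50 ± 0.13 at 4 h (adjusted p = 0.01) and 0.13 ± 0.13 at 8 h (adjusted p = 0.459). The call at 0 h was lost with any 1 of the 4 libraries left out (adjusted p between 0.0591 and 0.203), after median-ratio scaling, which scales libraries by their median ratio over genes (0.37, adjusted p = 0.0571), without the filter (adjusted p = 0.0695) and without limma's trend (adjusted p = 0.0575), and that at 4 h without WT library 1 (adjusted p = 0.0505) or KO library 1 (adjusted p = 0.0673). Without KO library 2, the difference at 8 h was 0.34 (adjusted p = 0.0424).

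The abundant leukocyte members Cd53, Cd63 and Cd81 differed by less. Cd53, found on nearly all leukocytes, had 228 and 221 TPM in KO cells at 0 h, against 255 and 272 TPM in WT cells. It was lower in KO cells at 0 h (-0.23 ± 0.07, adjusted p = 0.0326) and at 8 h (-0.20 ± 0.07, adjusted p = 0.0355), where it had 270.1 and 252 TPM in KO cells, against 284 and 315 TPM in WT cells. By 4 h it had 244 and 249.96 TPM in KO cells, against 246 and 230.2 TPM in WT cells, with overlap and a difference of 0.06 (adjusted p = 0.568). Both Cd53 calls rested on the model and on single libraries. Without limma's trend they were lost at 0 and 8 h (adjusted p = 0.111 and 0.107), as they were in limma on the compared groups alone (adjusted p = 0.0977 and 0.091). The one at 0 h was lost without WT library 2 (-0.18, adjusted p = 0.12), KO library 1 (adjusted p = 0.1) or KO library 2 (adjusted p = 0.182), and the one at 8 h without WT library 2 (-0.12, adjusted p = 0.229) or KO library 2 (adjusted p = 0.213).

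Cd81, a tetraspanin found on most cell types, was lower in KO cells at 4 and 8 h. At 0 h it had 165 and 151 TPM in KO cells, against 173 and 184 TPM in WT cells, a difference of -0.18 that did not pass (adjusted p = 0.162). After 4 h it had 117 and 128 TPM in KO cells, against 150.2 and 153 TPM in WT cells (-0.31 ± 0.09, adjusted p = 0.0157). By 8 h it had 107 and 92.8 TPM in KO cells, against 119 and 131 TPM in WT cells (-0.32 ± 0.09, adjusted p = 0.00875). The KO libraries were below the WT libraries at all 3 times. The call at 4 h was lost without WT library 1, WT library 2 or KO library 1 (adjusted p = 0.0564, 0.0811 and 0.131), and that at 8 h without WT library 2 (-0.25, adjusted p = 0.0646) or KO library 2 (-0.22, adjusted p = 0.0995).

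Cd63 did not pass at 0 h, where the libraries overlapped and its log2 difference was 0.05 (adjusted p = 0.549). With 4 h of actinomycin D it had 1273 and 1288 TPM in KO cells, against 1219 and 1181 TPM in WT cells (0.09, adjusted p = 0.195). After 8 h it had 1679.85 and 1689 TPM in KO cells, against 1821 and 1929 TPM in WT cells. The libraries did not overlap at 8 h, and the difference of -0.15 ± 0.05 passed the threshold (adjusted p = 0.0335), though not without WT library 2 (-0.11), KO library 1 (-0.15) or KO library 2 (-0.16). That call was also lost without limma's trend (adjusted p = 0.151) and in limma on the compared groups alone (adjusted p = 0.0745).

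Tspan14, Tspan31 and Tspan32 did not pass at 0 h. Tspan14, a TspanC8 tetraspanin that escorts the protease ADAM10 to the cell surface, had 71.4 and 74.5 TPM in KO cells at 0 h, against 74.6 and 74.0 TPM in WT cells (-0.03, adjusted p = 0.846). It had 46.4 and 43.55 TPM in KO cells at 4 h, against 37.8 and 36.4 TPM in WT cells (0.27 ± 0.08, adjusted p = 0.0144). With 8 h of actinomycin D it had 34.1 and 31.7 TPM in KO cells, against 28.35 and 28.1 TPM in WT cells (0.21 ± 0.08, adjusted p = 0.0353). The groups overlapped at 0 h and lay apart at 4 and 8 h. The difference at 8 h was that of the median gene (0.20), and after scaling by the median ratio over genes it was -0.06 (adjusted p = 0.561). The call at 4 h was lost after that scaling (0.18, adjusted p = 0.0914) and without WT library 2 (0.25, adjusted p = 0.0969) or KO library 1 (0.23, adjusted p = 0.118), and that at 8 h without WT library 1, WT library 2 or KO library 1 (adjusted p = 0.0815, 0.0929 and 0.21).

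Tspan31, first met as a gene amplified in human sarcomas, had 116 and 111 TPM in KO cells at 0 h, against 100.4 and 109 TPM in WT cells (0.12, adjusted p = 0.476). At 4 h it had 98.5 and 94.4 TPM in KO cells, against 88.4 and 85.2 TPM in WT cells (0.15, adjusted p = 0.295). At 8 h it had 65.1 and 68.8 TPM in KO cells, against 48.7 and 64.5 TPM in WT cells (0.25 ± 0.11, adjusted p = 0.0717). The KO libraries were above the WT libraries at all 3 times, but no difference passed with all libraries. Without WT library 2 at 8 h, the difference at 8 h was 0.45 (adjusted p = 0.00133). Tspan32, a tetraspanin of blood cells that restrains T cells and takes part in platelet integrin signalling, had 42.45 and 49.97 TPM in KO cells at 0 h, against 44.0 and 43.3 TPM in WT cells (0.08, adjusted p = 0.628). By 4 h it had 34.3 and 32.7 TPM in KO cells, against 37.85 and 37.9 TPM in WT cells (-0.17, adjusted p = 0.187). By 8 h it had 42.1 and 47.8 TPM in KO cells, against 32.04 and 35.7 TPM in WT cells, without overlap (0.40 ± 0.10, adjusted p = 0.00521). The groups overlapped at 0 h, the KO libraries were the lower ones at 4 h, and they were the higher ones at 8 h. The 8 h call was lost without KO library 2 (0.31, adjusted p = 0.0553) and after median-ratio scaling (0.13, adjusted p = 0.317).

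In counts, 3 of the 10 members were higher and 2 lower in KO cells at 0 h, where 25.7% of all tested genes were called (14.3% higher and 11.5% lower). At 4 h 4 were higher and 2 lower, where 38.6% of genes were called (24.9% higher and 13.7% lower). At 8 h 4 were higher and 4 lower, where 49.4% of genes were called (37.3% higher and 12.1% lower). The median log2 difference of the 10 was 0.06, 0.12 and 0.17 at 0, 4 and 8 h, beside 0.06, 0.10 and 0.20 over all genes. Members lay on both sides of the median gene, with Tspan13 at 1.46, 1.47 and 1.82 above that median and Cd9 at -1.02, -1.05 and -1.41 from it. Leaving out 1 library, which leaves 1 library in a group, lowered the number of called members at 0 and 8 h in each case, and in most cases at 4 h. Calls over all tested genes fell too in each of these fits, so fewer calls are not particular to the members.

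**Figure D2:**
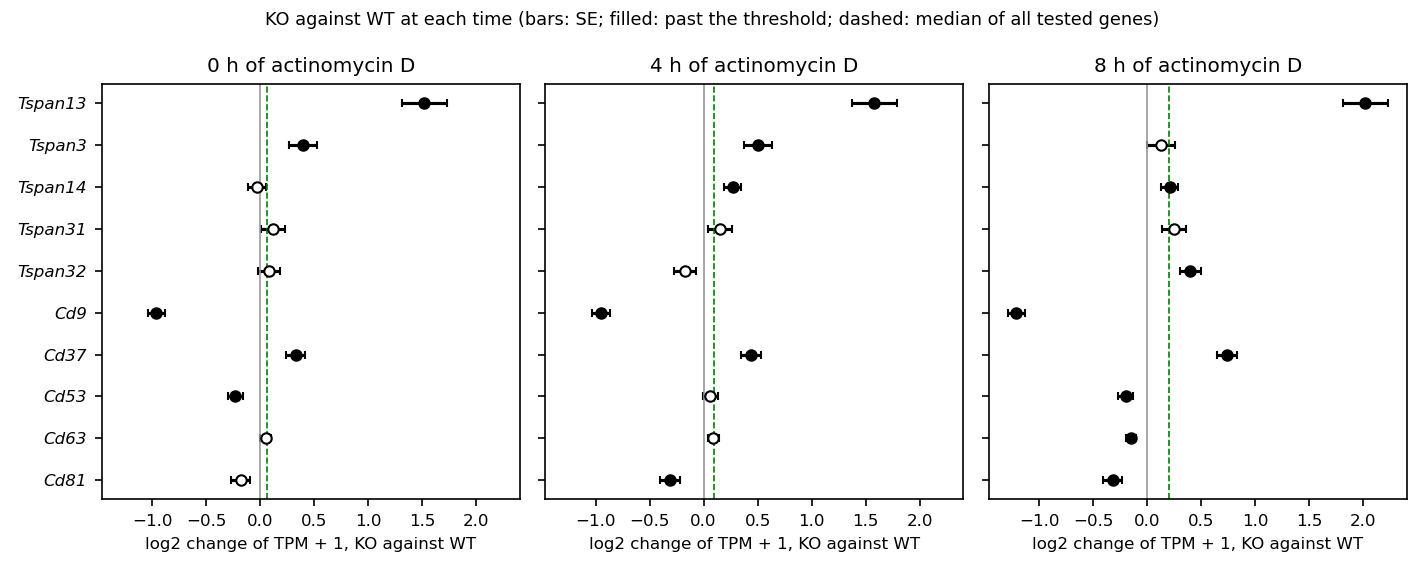
Log2 difference of TPM + 1, KO against WT, of the 10 genes at 0, 4 and 8 h. Points are limma estimates with bars of 1 SE (2 libraries per group), filled where the adjusted p is below 0.05, and the dashed line is the median of all tested genes. Tspan13 lies at 1.52, 1.58 and 2.02 and Cd9 at -0.96, -0.95 and -1.21, while the other members lie between -0.32 and 0.74.

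At 8 h of actinomycin D each of the 10 tetraspanin RNAs kept more of its starting TPM than the median gene did. The mean TPM of the median gene was then 35.1% of its 0 h value in KO cells and 28.4% in WT cells. At 4 h the means of all 10 members were above the median percent in both genotypes. Tspan14 was close to it in WT cells, at 49.9% beside 49.2%, with 1 library at 49.0%, and its log2 change there was 0.17 below that of the median gene. At 8 h 6 members in KO cells and 5 in WT cells were above 100% of their 0 h TPM, as were 14.8% of all genes in KO cells and 11.8% in WT cells. TPM sum to the same total in each library, so a value above 100% is a gain relative to the other transcripts. After median-ratio scaling all 10 were above 100% in both genotypes. That scaling takes the typical gene as unchanged (median log2 change at 8 h of -0.03 in KO cells and -0.07 in WT cells). The values above 100% after it therefore largely restate that the members kept more than the median gene, and they do not show a gain of RNA.

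No change of Tspan13 over time passed the threshold in either genotype. Its mean stood at 106% of its 0 h TPM at 4 h and 124% at 8 h in KO cells, against 101% and 83.8% in WT cells. The WT libraries at 8 h were at 53.4% and 114%, so they lay on either side of the 0 h level. The log2 change from 0 to 8 h was 0.28 ± 0.21 in KO cells (adjusted p = 0.214) and -0.22 ± 0.21 in WT cells (adjusted p = 0.326). Relative to the median gene it was 1.44 in KO cells and 1.18 in WT cells. Without WT library 2 at 8 h, the WT change was -0.59 (adjusted p = 0.00856), and after median-ratio scaling the WT change was 0.94 (adjusted p = 0.00231) and the KO change 1.56 (adjusted p = 7.11e-05).

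Cd9 gained the most share of the 10 in both genotypes, followed by Cd63 in WT cells and by Cd37 and Cd63, nearly level, in KO cells. Cd9 stood at 253% of its 0 h TPM at 8 h in KO cells and at 300% in WT cells, and Cd63 at 156% in KO cells and 180% in WT cells. The 8 h changes were 1.33 ± 0.08 in KO cells (adjusted p = 7.73e-09) and 1.58 ± 0.08 in WT cells (adjusted p = 1.29e-09) for Cd9. For Cd63 they were 0.64 ± 0.05 in KO cells (adjusted p = 1.83e-07) and 0.85 ± 0.05 in WT cells (adjusted p = 1.04e-08). The mast cell and basophil markers gained share at the same time, with sums of 7319 to 7508 TPM in KO cells at 8 h and 2968 to 3432 TPM in WT cells (5 of 7 higher and 1 lower in KO cells, 6 and 1 in WT cells), and the part of such transcripts was not tested. Over all genes, 9.54% were higher and 75.4% lower in KO cells at 8 h, and 8.48% and 80.2% in WT cells. Cd37 stood at 158% in KO cells and 119% in WT cells, and Cd53 at 116% and 114%. All 4 changes of Cd37 and Cd53 from 0 to 8 h passed as higher, at 0.66 and 0.21 in KO cells and 0.25 and 0.18 in WT cells. The KO change of Cd37 held with any 1 library left out. Those of Cd37 and Cd53 in WT cells were lost without WT library 1 at 0 h (adjusted p = 0.13 and 0.113) or WT library 2 at 8 h (adjusted p = 0.228 and 0.205), and that of Cd53 in KO cells without KO library 2 at 0 h (adjusted p = 0.0775) or KO library 1 at 8 h (adjusted p = 0.111).

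Tspan14, Tspan31 and Cd81 lost share in both genotypes, by 8 h less than or about as much as the median gene. Tspan14 stood at 45.1% at 8 h in KO cells and 38.0% in WT cells, Tspan31 at 58.9% and 54.1%, and Cd81 at 63.4% and 70.0%. The 8 h changes in KO cells were -1.13 ± 0.08 for Tspan14 (adjusted p = 2.03e-08), -0.75 ± 0.11 for Tspan31 (adjusted p = 2.55e-05) and -0.65 ± 0.09 for Cd81 (adjusted p = 1.36e-05). In WT cells they were -1.37, -0.89 and -0.51, all past the threshold. These directions flip under median-ratio scaling, to 0.27, 0.66 and 0.76 in KO cells and to 0.29, 0.78 and 1.17 in WT cells. Relative to the median gene at 8 h, Tspan14 was at 0.03 in each genotype, and the other members were above it by 0.40 to 2.98.

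Tspan32 and Tspan3 took other courses. Tspan32 fell by 0.45 on the log2 scale by 4 h in KO cells (adjusted p = 0.00126), to 72.5% of its 0 h TPM, and was back at 97.3% at 8 h (-0.04, adjusted p = 0.731). In WT cells it was at 86.8% at 4 h (-0.20, adjusted p = 0.0833) and fell by 0.36 by 8 h (adjusted p = 0.00428), to 77.7%. Both falls flip under median-ratio scaling, to 0.45 at 4 h in KO cells and 1.29 at 8 h in WT cells. Tspan3 was at 103% at 8 h in KO cells (adjusted p = 0.88) and at 125% in WT cells, where the change of 0.30 ± 0.13 just passed (adjusted p = 0.0453). It was lost without WT library 1 at 0 h (0.23, adjusted p = 0.195), WT library 1 at 8 h (adjusted p = 0.165) or WT library 2 at 8 h (adjusted p = 0.059).

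In counts, 3 members were higher and 3 lower at 4 h than at 0 h in KO cells, where 72.8% of all genes were called (4.88% higher and 68.0% lower). At 8 h 4 were higher and 3 lower in KO cells, where 84.9% were called (9.54% higher and 75.4% lower). For WT cells, 4 h against 0 h gave 2 higher and 3 lower calls, where 77.8% were called (6.77% higher and 71.0% lower). By 8 h, 5 members had passed upwards and 4 downwards in WT cells, where 88.7% were called (8.48% higher and 80.2% lower). The WT count at 4 h was lower without WT library 2 at 0 h or either WT library at 4 h, as was the count over all genes. After median-ratio scaling 10 members at 4 h in KO cells and 9 in WT cells were called, all higher. Of all 11152 genes, 4142 were then higher and 3845 lower in KO cells, and 4075 higher and 3931 lower in WT cells. The median change of the 10 at 8 h was 0.12 in KO cells and -0.02 in WT cells, beside -1.16 and -1.40 over all genes. The 4 h and 8 h changes of a genotype share its 0 h libraries, so they are not independent of each other.

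**Figure D3:**
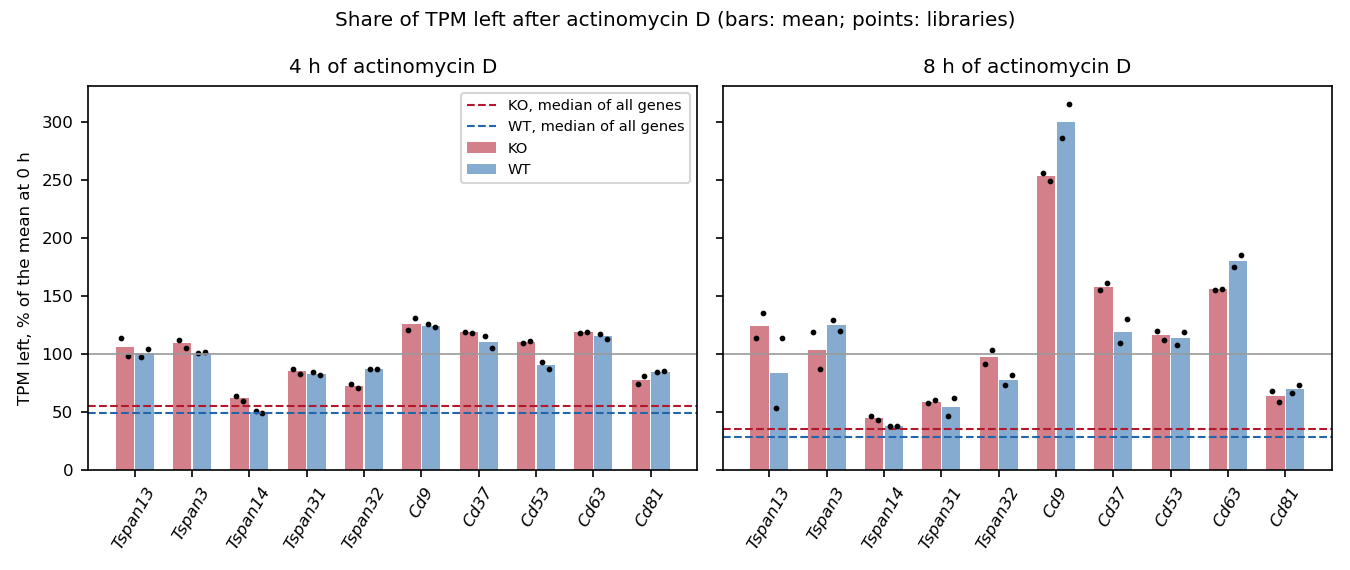
TPM left at 4 h and 8 h as a percent of the mean at 0 h of the same genotype, with KO bars left of WT bars, points for the libraries and dashed lines for the median of all genes (54.7 and 35.1% in KO cells, 49.2 and 28.4% in WT cells). Cd9 reaches 253% in KO cells and 300% in WT cells at 8 h, and Tspan14, at 45.1 and 38.0%, is the member nearest to the median lines.

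Whether loss after actinomycin D differed between KO and WT cells was tested as a difference of changes, KO minus WT. By 4 h no member passed in limma, and 0.350% of all genes did (0.0538% higher and 0.296% lower). An unadjusted p below 0.05 was found for 2 members, Cd53 and Tspan14, and for 15.8% of all genes. By 8 h 1 member passed, Cd37, where 19.9% of all genes did (17.3% higher and 2.63% lower). The unadjusted p was below 0.05 for 5 members and for 33.4% of all genes. Cd37 kept more of its share in KO cells, with a difference of 0.41 ± 0.13 (adjusted p = 0.0389), beside 0.18 over all genes. It was lost in 10 of 16 other settings, among them median-ratio scaling (0.16, adjusted p = 0.257) and the omission of any KO library at 0 or 8 h, of WT library 2 at 0 h or of WT library 1 at 8 h (adjusted p between 0.0702 and 0.124).

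For Tspan13 the difference of changes was 0.06 by 4 h (95% interval -0.58 to 0.69, adjusted p = 0.95) and 0.50 by 8 h (95% interval -0.13 to 1.14, adjusted p = 0.257). The interval at 8 h holds 0 as well as values above 1. The estimate turned on 1 library: without WT library 2 at 8 h it was 0.87 (adjusted p = 0.021). On a straight line over all 3 times, the difference of slopes over 8 h was 0.50 ± 0.34 (adjusted p = 0.564) for Tspan13, and 0.00% of all genes passed in limma (1683 had an unadjusted p below 0.05). With evenly spaced times this estimate equals the difference of changes by 8 h, so it is not a further test of it. Only the SE differs (0.29 for the difference by 8 h), since departures from a straight line count as spread. The 0.00% therefore does not show that loss was alike in both genotypes. Cd37 was the only member with an unadjusted p below 0.05 on that line (0.014), as 15.1% of all genes had. After median-ratio scaling 4 members passed by 8 h, where 1878 of 11152 genes did (999 higher and 879 lower). All 4 differences, KO minus WT, were negative: Cd9 (-0.52, adjusted p = 0.00252), Cd63 (-0.47, adjusted p = 0.00325), Cd81 (-0.40, adjusted p = 0.0276) and Cd53 (-0.23, adjusted p = 0.0494, against 0.03 before scaling).

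**Figure D4:**
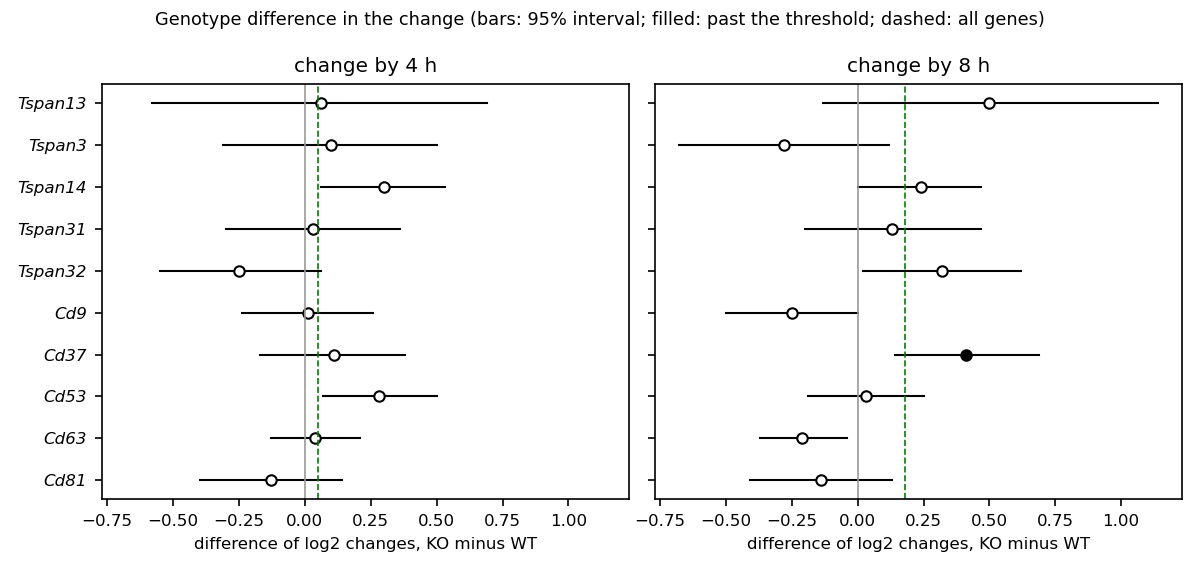
Difference of the log2 changes after actinomycin D, KO minus WT, by 4 h and by 8 h, with 95% intervals from limma. Filled points have an adjusted p below 0.05 and the dashed line is the median of all genes. Only Cd37 at 8 h (0.41) is filled, and the interval of Tspan13 at 8 h, from -0.13 to 1.14, is the widest of the 10.

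Other tetraspanins were mostly at low levels. Of 21 further family members, 7 passed the filter: Tspan2, Tspan4, Tspan5, Tspan17, Cd82, Cd151 and Rom1. At 0 h 2 of the 7 were called, near the share over all genes (25.7%). The 1 higher in KO cells was Tspan4, with 57.1 and 62.5 TPM in KO cells, against 33.1 and 38.3 TPM in WT cells (0.73 ± 0.10, adjusted p = 0.000212). Cd82, known from human tumours as a suppressor of metastasis, was the 1 lower, with 59.3 and 55.4 TPM in KO cells, against 69.4 and 75.7 TPM in WT cells (-0.33 ± 0.07, adjusted p = 0.00423), a call lost without KO library 2 (adjusted p = 0.0613). At 8 h against 0 h, the 7 split into 2 higher and 4 lower calls in KO cells, and 3 and 3 in WT cells, where 9.54% of all genes were higher and 75.4% lower in KO cells, and 8.48% and 80.2% in WT cells. Tspan5, a TspanC8 member like Tspan14, fell by 2.46 in KO cells and 2.32 in WT cells. Cd151, a partner of laminin-binding integrins, fell by 0.93 and 1.20, a direction that flips under median-ratio scaling to 0.39 and 0.37.

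Among partners of tetraspanins, a list of 23 genes of which 18 were tested, 7 were higher and 7 lower in KO cells at 0 h, where 14.3% of all genes were higher and 11.5% lower. The list's median was 0.01, beside 0.06 over all genes. Itga2b, the platelet integrin chain that sits with CD9 and that is also 1 of the 6 megakaryocyte markers, had 31.1 and 30.35 TPM in KO cells, against 6.27 and 6.19 TPM in WT cells (2.13 ± 0.09, adjusted p = 1.41e-08). Ifitm1, an interferon-inducible protein found with CD81, had 227 and 215 TPM in KO cells, against 58.4 and 48.2 TPM in WT cells (2.04 ± 0.11, adjusted p = 6.96e-08). Its relative Ifitm3 went the other way, with 232 and 219 TPM in KO cells, against 844 and 720 TPM in WT cells (-1.78 ± 0.07, adjusted p = 1.38e-08). Clec7a, the beta-glucan receptor that CD37 and CD63 bind, had 23.1 and 19.7 TPM in KO cells, against 84.2 and 90.35 TPM in WT cells (-1.98 ± 0.10, adjusted p = 5.49e-08). These 4 were named for the smallest p of the list in this comparison, so groups far apart and without overlap follow from that choice.

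Cxcr4 had 71.3 and 68.1 TPM in KO cells at 0 h, against 96.9 and 122 TPM in WT cells (-0.63 ± 0.14, adjusted p = 0.00585), a call lost without WT library 2 (-0.47, adjusted p = 0.0597) or KO library 2 (adjusted p = 0.0508). By 8 h it had 2.97 and 2.39 TPM in KO cells, against 5.44 and 7.06 TPM in WT cells, with changes from 0 h of -4.27 in KO cells and -3.93 in WT cells. Ybx1 had 964 and 940.49 TPM in KO cells at 0 h, against 655 and 813 TPM in WT cells (0.38 ± 0.08, adjusted p = 0.00507).

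In the protease axis that Tspan14 serves, few genes differed at 0 h. Of 11 genes listed for TspanC8 tetraspanins and ADAM10, 8 were tested, Tspan14, Tspan5 and Tspan17 included, and 2 were lower and 0 higher in KO cells at 0 h, close to the 25.7% of all genes called. These 2 were the ADAM10 substrates Notch1 (-1.11 ± 0.14, adjusted p = 0.000125) and Notch2 (-0.63 ± 0.15, adjusted p = 0.0103), the second lost without WT library 2 (-0.50, adjusted p = 0.078) or KO library 2 (adjusted p = 0.0952). Adam10 had 109.6 and 102 TPM in KO cells, against 89.8 and 105 TPM in WT cells, with overlap (0.12, adjusted p = 0.365). At 8 h 7 of the 8 were lower than at 0 h in each genotype, near the 75.4% of all genes in KO cells and 80.2% in WT cells, among them Adam10, which fell by 1.45 in KO cells and 1.69 in WT cells, calls lost after median-ratio scaling (adjusted p = 0.473 and 0.642).

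Of 17 genes of the exosome machinery, for which Cd9, Cd63 and Cd81 are the usual surface marks, 16 were tested, with 1 higher and 3 lower in KO cells at 0 h, near the 25.7% of all genes called. The higher one was Rab27b, a GTPase of vesicle release, with 16.4 and 15.5 TPM in KO cells, against 3.87 and 4.15 TPM in WT cells (1.76 ± 0.13, adjusted p = 1.21e-06). The lower ones were Lamp1 (-0.64), Lamp2 (-0.39) and the membrane scaffold Flot2 (-0.38), whose call was lost without WT library 2 (-0.28, adjusted p = 0.0522) or KO library 1 (adjusted p = 0.087). At 8 h against 0 h, 4 of the 16 were higher and 10 lower in KO cells, and 4 higher and 11 lower in WT cells, beside 9.54% higher and 75.4% lower over all genes in KO cells and 8.48% and 80.2% in WT cells. The lysosomal Lamp1 gained share, by 0.77 in KO cells and 0.82 in WT cells.

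The genes with the pattern most like Tspan13 over the 12 libraries, among 7677 genes with a mean of at least 5 TPM, were Pglyrp2 (Pearson r = 0.987), an amidase of bacterial cell walls, Perp (0.986), a membrane protein of desmosomes, Tpm1 (0.985), a tropomyosin, Akr1c13 (0.983), a reductase, and Car12 (0.983), a carbonic anhydrase. All 5 had a higher mean level in KO cells at 0 h, which the choice by likeness to Tspan13 largely brings with it. Pglyrp2 averaged 12.5 TPM in KO cells, against 2.23 TPM in WT cells, and Perp averaged 242 TPM in KO cells, against 81.2 TPM in WT cells. These r are descriptions, since the libraries share 2 cell populations. Of the other members, Cd37 was the most like Tspan13 (r = 0.811), followed by Tspan3 (0.680), and Cd9 was the least like it (-0.613).

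The genes lie apart in the genome, save a pair. On GRCm38, by GENCODE M21, Tspan13 spans chr12:36014557-36042500 on the minus strand, with 6 exons and a transcript of 1932 bases. Tspan32 and Cd81 are next to each other on the plus strand of chromosome 7, with 33094 bases and 0 genes between them. The 3′ untranslated region of Tspan13 is 1141 bases long and holds 2 copies of ATTTA, the core of AU-rich elements that mark short-lived RNA. Each gene was read from 1 transcript, that with the longest coding sequence. Of the transcripts so chosen, that of Tspan13 has the most copies, those of Tspan14, Tspan32, Cd9 and Cd81 hold 1, and the other 5 hold 0. For Tspan3 and Cd63 the chosen transcript has a 3′ untranslated region of only 51 and 82 bases. Other transcripts of the genes were not counted, so the order may depend on this choice. Over 10521 tested genes the median 3′ untranslated region had 915 bases and 1 copy, and 35.5% held none.

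Some of the 10 overlap genes on the opposite strand, and the strand setting of the authors' counting is not given in the sources used here. Tspan31 shares 641 bases with Cdk4, which averaged 372 TPM in KO cells at 0 h and 279 TPM in WT cells, so the levels of Tspan31 are uncertain. Cd81 shares 948 bases with R74862 (0.75 TPM in KO cells and 1.33 TPM in WT cells) and Cd37 shares 13 bases with Tead2 (0.43 and 0.32 TPM). Tspan32 and Cd9 overlap transcripts of the other strand whose levels were not analysed here. Tspan13, Tspan3, Tspan14, Cd53 and Cd63 have no annotated overlap.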

How the data were processed

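The deposited table holds TPM per gene, made by the authors with STAR and RSEM on mm10 per the submitters' processing notes; versions, annotation and strandedness of counting: not given in the sources used here. TRIzol extraction and a stranded mRNA kit were used, per the labels' protocols. Columns sum to 1000000 within 1, depth is unknown and no added RNA standard is named. From log2(TPM + 1), limma 3.58.1 (R 4.3.3) was fitted to all 12 libraries, with 1 mean per group (6 residual degrees of freedom) or a line on hours per genotype (8), a trend on mean level, and Benjamini-Hochberg adjustment over 11152 genes at 0.05. The code was checked on simulated data. Members and lists were chosen with earlier results of these data known. Of each list, up to 4 genes with the smallest p were named. The like patterns are the 5 highest Pearson r. Replicate numbers carry no stated pairing. Alternatives were the replicate block, median-ratio scaling, pseudocounts of 0.1 and 0.5, no filter, a 5 TPM mean filter, no trend, compared groups alone, and each library left out. Sequences and positions came from GENCODE M21 (GRCm38) by symbol, with all 10 members matched. A gene of the marker and partner lists is not reported here.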

Additional observations from a re-analysis of the deposited data

Results flagged for a closer look

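Cd37 was the 1 member whose change after actinomycin D differed between genotypes by a test of the difference itself. By 8 h the change in KO cells exceeded that in WT cells by 0.41 ± 0.13 on the log2 scale (limma, adjusted p = 0.0389), where 19.9% of all genes passed. Cd37 stood at 155 and 161% of its 0 h TPM in the KO libraries and at 109 and 130% in the WT libraries, without overlap. The call was kept in 6 of 16 other settings, with adjusted p between 0.00813 and 0.257 over all of them, and what sets it was not tested.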

How the results depend on the processing

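Pseudocounts of 0.1 and 0.5 and a mean of at least 5 TPM changed no call of a member. Median-ratio scaling, which moved the median gene by 0.75 and 1.12 at 4 and 8 h in KO cells, 0.82 and 1.32 in WT cells and -0.20 between genotypes at 8 h, changed most. It gave 10 called members at 4 h in KO cells, 9 in WT cells, 4 for the difference at 8 h, and 10 members above 100% at 8 h in each genotype. Over all 11152 genes it called 7987 at 4 h in KO cells, 8006 in WT cells and 1878 for the difference at 8 h. Since this scaling takes the typical gene as unchanged, changes over time after it are relative to that gene. Tspan13 was then at 0.88 and 1.56 at 4 and 8 h in KO cells, and at 0.69 and 0.94 in WT cells. Directions turned for Tspan14, Tspan31, Tspan32 and Cd81 in KO cells at 4 h (0.22, 0.68, 0.45, 0.55) and 8 h (0.27, 0.66, 1.36, 0.76), and in WT cells at 4 h (0.00, 0.73, 0.78, 0.76) and 8 h (0.29, 0.78, 1.29, 1.17). They also turned for Cd53 in WT cells at 4 h (0.85), Cd151 at 8 h (0.39 in KO cells, 0.37 in WT cells), Cd47 at 8 h in WT cells (0.03), Tspan14 between genotypes at 8 h (-0.06) and Cd53 in the difference at 8 h (-0.23). Without the trend, 2 members were called between genotypes at 0 h, 5 at 8 h and 3 at 4 h in WT cells, and compared groups alone gave 5 between genotypes at 8 h. Over all 11152 genes, 2601, 5460 and 8442 were called without the trend, and 4282 with compared groups alone. The difference at 8 h had 0 members called without the filter, without the trend or with compared groups alone. Over all genes these settings called 1927 of 15852, 1835 of 11152 and 1605 of 11152. Median-ratio scaling divides all genes of a library by 1 factor, between 1.70 and 1.93 at 0 h and between 0.538 and 0.688 at 8 h. The directions that turned under it follow from these factors. The cause of the moves in the other settings was not tested.

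Leaving out 1 library gave 2 to 3 called members between genotypes at 0 h, 3 to 6 at 4 h and 5 to 7 at 8 h. It gave 5 at 4 h in each case and 6 to 7 at 8 h in KO cells, 3 to 6 and 6 to 9 in WT cells, and 0 to 2 for the difference at 8 h. Over all tested genes, calls between genotypes and over time also fell in each of these fits. Tspan13 ranged from -0.59 to 0.15 at 8 h in WT cells and from 0.14 to 0.87 for the difference at 8 h. The number of members above 100% at 8 h ranged from 5 to 7 in KO cells and 5 to 6 in WT cells. With the replicate block, 99 results of members stayed as they were, called or not called, and Tspan3 at 8 h in WT cells lost its call (0.30, adjusted p = 0.051). Deviations of same-numbered libraries correlated by -0.0834 to 0.0505 over 15 pairs of groups, so no effect shared by replicate number was seen. With 2 libraries per group this cannot show whether same-numbered libraries came from the same culture or batch. The slope has no fit of compared groups alone, since it uses all groups. Depth is unknown, which limits how firmly the low values of Tspan13 can be read.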
